A study of Mus musculus with 20 samples.

Results

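The small leucine-rich proteoglycans are secreted matrix proteins built around tandem leucine-rich repeats, and 8 genes of the family were followed here: Dcn (decorin), Lum (lumican), Bgn (biglycan), Ogn (osteoglycin), Omd (osteomodulin), Prelp, Fmod (fibromodulin) and Aspn (asporin). They were taken as a named list, by gene symbol, from 19722 genes measured at 4 h and 51912 gene identifiers measured at 24 h, and all 8 were present in both tables. RNA came from forebrain slices kept in culture, cut from mice at postnatal day 4, and all slices of both times had 5% horse serum in the medium. The series title concerns TSG-6, a protein that modifies hyaluronan matrix and is encoded by Tnfaip6, in hypoxic-ischemic brain injury. After 4 h in serum, wild type (WT, 3 libraries) was set against Tnfaip6 knockout (KO by its label, 3 libraries). After 24 h the controls were heterozygotes (Het) instead, with 3 Het and 4 KO-labelled libraries from females and as many from males. Which stretch of Tnfaip6 was deleted is not given in the sources used here, nor whether each library is a separate animal, so the p-values cover the spread among libraries, which may be technical.

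As background, small leucine-rich proteoglycans bind fibrillar collagens and set fibril spacing and width, and several also hold growth factors or engage cell-surface receptors. Decorin and biglycan carry chondroitin or dermatan sulfate chains. Lumican, fibromodulin and osteomodulin carry keratan sulfate, whereas PRELP binds heparan sulfate of basement membranes and asporin has an aspartate-rich end in place of the usual glycan site. In brain the family is known mainly from the fibroblasts of the meninges and of the vessel walls. In bulk RNA, fewer cells of a type and less RNA per cell cannot be told apart.

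The tables list the members by Ensembl identifier, namely ENSMUSG00000019929 (Dcn), ENSMUSG00000036446 (Lum), ENSMUSG00000031375 (Bgn), ENSMUSG00000021390 (Ogn), ENSMUSG00000048368 (Omd), ENSMUSG00000041577 (Prelp), ENSMUSG00000041559 (Fmod) and ENSMUSG00000021388 (Aspn). Most of them lie in short chromosomal groups (GRCm38, GENCODE annotation). On chromosome 10, Dcn (97479609 to 97518143, plus strand) lies 47.0 kb before Lum (97565128 to 97572703, plus strand), with Kera and Epyc beyond. On chromosome 13, Aspn (49544443 to 49567565), Omd (49582462 to 49592822) and Ogn (49608046 to 49624501) follow each other on the plus strand, separated by 14.9 and 15.2 kb, inside a span that Cenpp overlaps on the opposite strand. On chromosome 1, Prelp (133910304 to 133921414, minus strand, overlapped by Gm15851 on the opposite strand) lies 115.8 kb from Fmod (134037254 to 134048277, plus strand). Bgn lies alone on the X chromosome (73483602 to 73495933, plus strand). The strand setting of the counting is not given in the sources used here. Overlap was taken from whole gene spans and not from exons. Whether counts of Ogn, Omd, Aspn and Prelp were affected by their opposite-strand partners is therefore not known.

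Promoter sequence was matched by symbol for 6 of the 8 members in a RefSeq table of GRCm38.p6, and Dcn and Lum had no entry. Of these, 3 promoters are shown, because Prelp and Ogn had the largest differences at 4 h and Ogn and Fmod varied together at 24 h. Each is the 250 bases before the annotated start, written 5′ to 3′ on the gene's own strand, with capitals marking matches to TATAAA or CCAAT on either strand.
Prelp, chr1:133921402-133921651, minus strand: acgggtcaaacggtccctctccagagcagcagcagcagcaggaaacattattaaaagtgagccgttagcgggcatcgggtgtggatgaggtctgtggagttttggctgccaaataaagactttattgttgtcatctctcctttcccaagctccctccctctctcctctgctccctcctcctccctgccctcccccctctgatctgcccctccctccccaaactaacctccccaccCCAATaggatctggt
Ogn, chr13:49607765-49608014, plus strand: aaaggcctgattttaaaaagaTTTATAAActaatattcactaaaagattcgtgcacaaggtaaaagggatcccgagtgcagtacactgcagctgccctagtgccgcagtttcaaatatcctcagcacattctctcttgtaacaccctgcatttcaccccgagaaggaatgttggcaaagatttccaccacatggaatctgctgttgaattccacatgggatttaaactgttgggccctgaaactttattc
Fmod, chr1:134037004-134037253, plus strand: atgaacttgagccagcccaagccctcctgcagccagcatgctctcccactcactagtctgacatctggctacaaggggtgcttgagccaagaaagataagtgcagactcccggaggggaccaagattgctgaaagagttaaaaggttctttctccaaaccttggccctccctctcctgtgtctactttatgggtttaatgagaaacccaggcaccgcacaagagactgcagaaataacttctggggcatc
In Prelp the capitals are a CCAAT 15 to 11 bases before the RefSeq start. In Ogn they are TATAAA matches on both strands that overlap, 229 to 222 bases before the start, and Fmod held neither motif. The RefSeq start of Ogn is not the GENCODE one: the bases after it were not found in a GENCODE transcript. That of Prelp differs as well: its GENCODE 5′ end, 133921414, lies inside the window, and the CCAAT spans that position. TATAAA occurred in 12.4% and CCAAT in 33.9% of 32851 promoters of the same length. The AP-1 motif TGANTCA occurred in 6.75% of them and in none of the 6 member promoters. These matches describe the letters in the window and say nothing about a factor's binding.

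Total reads were 11411532 to 15030171 per library at 4 h and 8482933 to 18051300 at 24 h. Tnfaip6 had 37 to 94 reads in every 4 h library and 45 to 108 in every 24 h library and was not lost in the KO-labelled ones, so they are called KO-labelled throughout; with the deleted stretch not known, reads outside it check nothing. Its log2 difference was -0.36 ± 0.25 (SE, limma adjusted p = 0.563) at 4 h. At 24 h it was 0.45 ± 0.16 averaged over sexes (edgeR adjusted p = 0.738), 0.50 in females and 0.39 in males. The unadjusted p from edgeR was below 0.05 on average and in females, but not in males. The library labelled KO female 2 had 0 Xist reads and 826 reads of the Y-linked Ddx3y, against its label, and Het male 1 had 107 Xist reads beside its Y-linked ones. At 4 h, WT 1 and KO 1 carried Xist reads (5655 and 2355) and the other 4 libraries Y-linked reads. Markers of choroid plexus epithelium summed to 1537, 2800 and 500 CPM (read counts scaled to a common library total) in KO female 1, KO female 3 and KO male 3, and to 21.5 to 34.5 CPM in the other 11 libraries at 24 h. All 19 markers of meningeal fibroblasts had reads in every library. Their sum was 749 to 875 CPM in WT and 502 to 757 CPM in KO-labelled libraries at 4 h, and 692 to 1799 CPM at 24 h.

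Biglycan was the most abundant member per length. Levels between genes are given as CPM of the library total per kb of exon, as mean ± SD over all libraries of a time. At 4 h (n = 6) Bgn stood at 10.5 ± 1.79, Fmod at 3.89 ± 1.28 and Dcn at 3.04 ± 1.03. Prelp (1.78 ± 0.743), Ogn (1.76 ± 0.737) and Lum (1.71 ± 0.458) did not differ beyond their spread, over all 6 libraries, with Prelp above Ogn in 4 of 6 and Ogn above Lum in 3 of 6. Their order differed by group: Prelp was above Lum in WT 1 to 3 (2.18, 2.39 and 2.71 against 2.12, 1.83 and 2.26). In KO-labelled 1 to 3 it was above Lum only in the third (0.945, 1.07 and 1.382 against 1.26, 1.66 and 1.11). Aspn (0.172 ± 0.104) and Omd (0.0857 ± 0.0448) lay below the range of all the others. The same scale at 24 h (n = 14) gave 14.9 ± 1.21 for Bgn, 10.8 ± 4.46 for Dcn and 4.28 ± 1.21 for Lum. Next came Prelp at 3.29 ± 1.27, Fmod at 2.89 ± 0.966 and Ogn at 1.67 ± 0.474, then Aspn at 0.207 ± 0.109 and Omd at 0.180 ± 0.0971. Bgn exceeded Dcn in 13 of 14 libraries, KO male 1 being the exception chosen after its values were seen, and Dcn exceeded Lum in 14 of 14. Prelp exceeded Fmod in 9 of 14 and Aspn exceeded Omd in 7 of 14, so those neighbours were not ordered. With the longest transcript in place of all exons, Bgn stood at 24.1 at 4 h and 34.1 at 24 h.

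**Figure D1:**
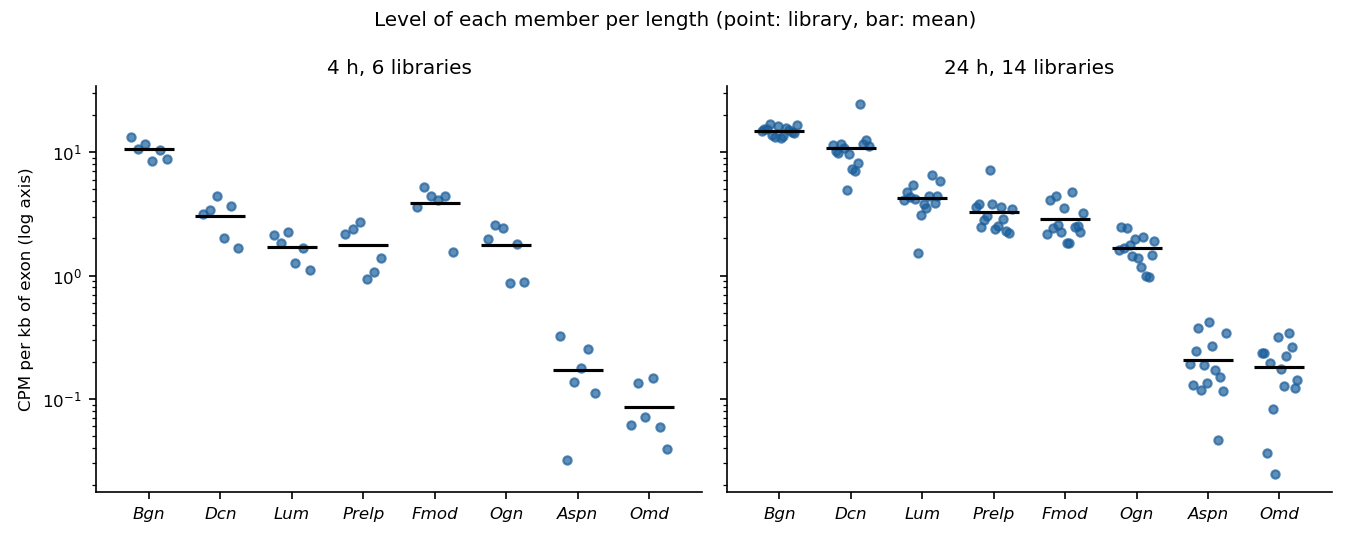
Level of each member per length, in CPM per kb of exon on a log axis, for 6 libraries at 4 h and 14 at 24 h (points: libraries, bars: means). Bgn is highest at both times, and Aspn (mean 0.172 and 0.207) and Omd (0.0857 and 0.180) lie below the range of the others.

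Osteomodulin and asporin were close to the counting limit. Omd, known from mineralising bone, had 1 to 4 reads per library at 4 h and 1 to 9 at 24 h. Aspn, which competes with decorin for collagen, had 1 to 11 and 1 to 12. Neither passed the filter on low values at either time, so 6 of the 8 members were tested, and no difference between groups was detectable for these genes at this depth. Among the summed reads of the 8 members, Bgn took 53.1% to 68.2% at 4 h and 34.1% to 54.5% at 24 h. The share of Dcn was 12.3% to 19.3% at 4 h and 19.2% to 52.0% at 24 h. The times differ in control genotype and were deposited as separate tables, so these values stand side by side without a test.

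At 4 h, all 6 tested members had lower means in the KO-labelled slices than in WT, and no member passed the test. The means ± SD (n = 3 each) were 112.4 ± 11.6 in WT and 53.7 ± 10.3 in KO-labelled libraries for Prelp, and 76.8 ± 10.4 and 40.1 ± 18.03 for Ogn. The values are the deposited normalised read counts, that is, counts divided by a size factor for each library, and differences were tested with limma on log2(value + 1), a scale that understates changes of low genes. Prelp, an anchor between basement membranes and collagen, had 100.8, 112.3 and 124.0 in WT 1 to 3 and 45.0, 51.2 and 65.0 in KO-labelled 1 to 3. Every KO-labelled library was below every WT library. The log2 difference was -1.06 ± 0.19 (SE, limma adjusted p = 0.0865), rank 11 of 15181 genes by p. With the replicate number as a block, which treats same-numbered libraries as pairs, the adjusted p from limma was 0.0390, past the threshold of 0.05. It also passed with a robust spread (0.0462), and over all 15 alternatives that gave one it ranged from 0.0268 to 0.295.

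Ogn had 65.4, 85.7 and 79.3 in WT and 29.6, 60.9 and 29.7 in KO-labelled libraries. Again the groups did not overlap, and KO-labelled 2 stood closest to WT. Its log2 difference was -0.998 ± 0.269 (SE, limma adjusted p = 0.166). Lum, a keratan sulfate proteoglycan of collagen fibrils, had 66.3, 58.1 and 70.1 against 40.6, 53.8 and 35.4. These groups did not overlap either, and the log2 difference was -0.59 ± 0.22 (SE, limma adjusted p = 0.253). Non-overlap toward lower values in the KO-labelled group held for 3 of the 6 tested members and for 8.88% of all 15181 genes tested (10.1% toward higher values, 19.0% in either direction).

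Dcn, which binds TGF-beta and receptor tyrosine kinases, had 236.0, 255.2 and 325.2 in WT and 154.7, 281.4 and 126.6 in KO-labelled libraries. Bgn, also a ligand of Toll-like receptors, had 1036, 840.5 and 898.5 against 678.0, 845.1 and 700.4. For both genes only KO-labelled 2 reached into the WT range. The log2 difference was -0.61 ± 0.23 (SE, limma adjusted p = 0.262) for Dcn and -0.32 ± 0.10 (adjusted p = 0.199) for Bgn. Fmod, which shares collagen sites with lumican, had 152.0, 225.6 and 186.0 against 177.7, 195.0 and 66.2. Only KO-labelled 3 was low: the log2 difference of -0.49 ± 0.31 (SE, limma adjusted p = 0.505) became 0.01 without that library.

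**Figure D2:**
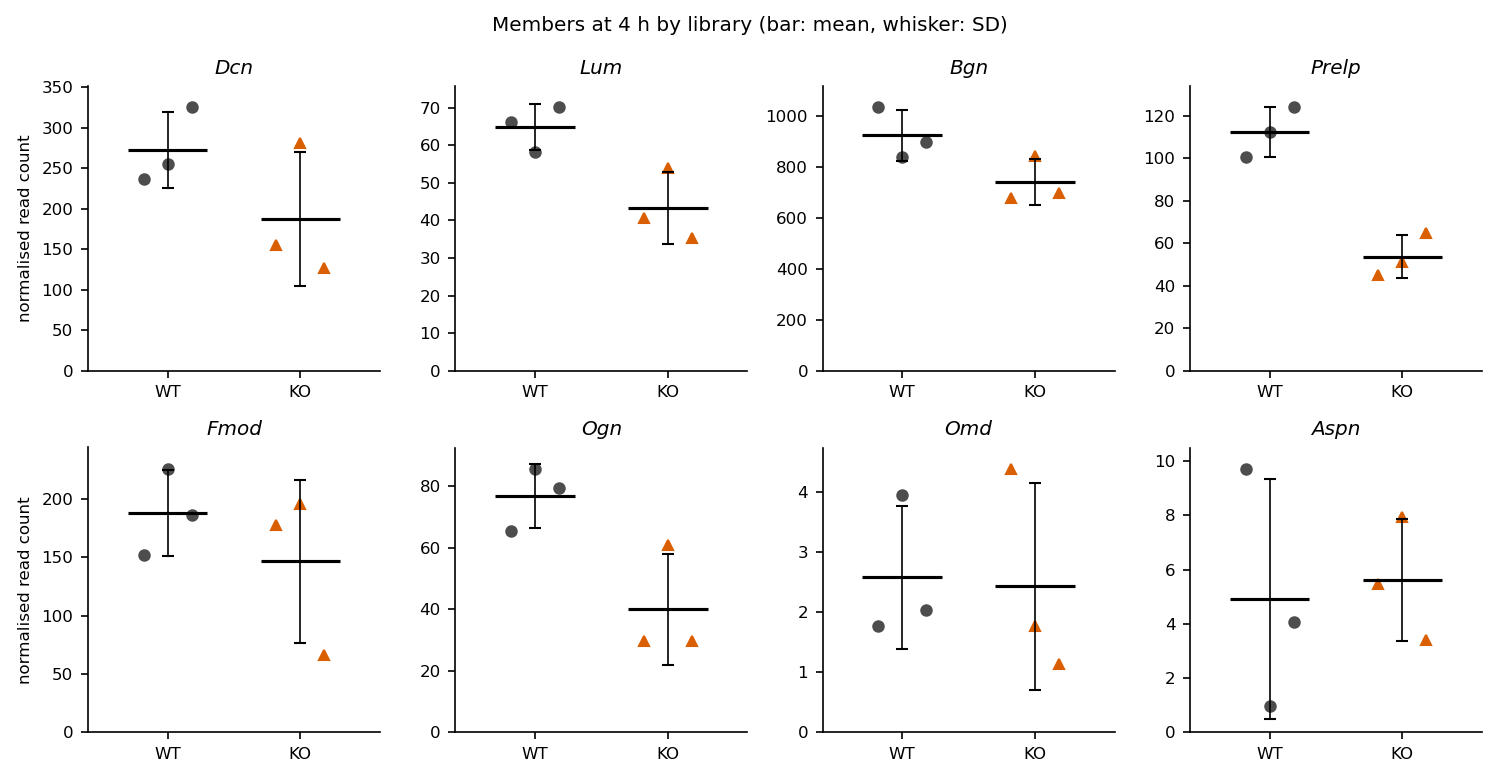
Normalised read counts of the 8 members at 4 h in 3 WT (circles) and 3 KO-labelled (triangles) libraries, with the mean (bar) and SD (whisker). The groups do not overlap for Prelp, Ogn and Lum, and Omd and Aspn have values below 10.

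By limma, 0 of the 6 tested members and 7 of 15181 genes (0.0461%, and 0.0329% toward lower values) passed an adjusted p of 0.05. Unadjusted p-values under 0.05 were given to 5 of the 6 members, all but Fmod, and to 2110 of all 15181 genes. The edgeR test on recovered reads also called 0 members, with 5 below 0.05 unadjusted, and DESeq2 called 0, with 4 below 0.05 unadjusted and no adjusted p for 7 of the 8. The median log2 difference of the 6 members was -0.60, beside 0.00 for all genes, and 6 of 6 were negative, beside 49.4% of all genes. Leaving out KO-labelled 2 changed the calls most: Prelp (limma adjusted p = 0.0268), Bgn (0.0360), Dcn (0.0135) and Ogn (0.0184) then passed, among 211 genes called. Without both libraries with Xist reads, Prelp had a log2 difference of -1.02 and an adjusted p of 0.250.

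The lower levels did not stand alone at 4 h. Of 22 fibrillar and associated collagens and their processing enzymes, 20 had negative differences (median -0.25) and limma called 0, with 8 below an unadjusted p of 0.05. Serpinh1, a collagen chaperone, stood at -0.29 ± 0.09 (SE), Col6a1 at -0.45 ± 0.15, Col11a1 at -0.34 ± 0.11 and Col5a3 at -0.48 ± 0.20. Of 17 tested meningeal fibroblast markers, 15 had negative differences (median -0.36) and 0 were called, with 6 below 0.05 unadjusted. Among these were Foxc1 (-0.67 ± 0.21), a transcription factor needed for the meninges, Islr (-0.40 ± 0.13), Igf2 (-0.36 ± 0.12) and Aldh1a2 (-0.46 ± 0.18). Negative differences were also seen for 12 of 12 endothelial markers (median -0.33), 11 of 11 pericyte markers (-0.29) and 13 of 13 astrocyte markers (-0.16), and positive ones for 12 of 14 neuronal markers (median 0.11). Microglial markers were negative for 9 of 12 (median -0.07) and those of the oligodendrocyte lineage for 8 of 10 (-0.11). Markers of choroid plexus epithelium (median -0.13) and of chondrocytes and bone (-0.02) were negative for 3 of 5 each. Limma called 0 of these markers. In the order named, 6, 4, 6, 5, 0, 0, 1 and 1 were below 0.05 unadjusted, beside 2110 of all 15181 genes. Some of these lists share genes, so their counts are not independent. Col1a1, Col1a2 and Col3a1 are in the collagen and meningeal lists. Col2a1 is in the collagen and chondrocyte lists, and Cspg4 in the pericyte and oligodendrocyte ones. The part of these cell types in the members' differences was not tested.

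Genes that make the proteoglycans and genes that read them were also examined at 4 h. Beside their counts below an unadjusted p of 0.05 stand the 2110 of all 15181 genes. Of 28 genes for glycan synthesis and core protein processing, 16 had positive differences (median 0.03) and limma called 0, with 2 below an unadjusted p of 0.05. Those with the smallest p were Chst12 (0.30 ± 0.11), a chondroitin sulfotransferase, Chst1 (0.20 ± 0.08), a keratan sulfotransferase, Tll2 (1.07 ± 0.53), a protease of the family that trims procollagens, and B3gnt7 (0.32 ± 0.17), which extends keratan chains. Of 28 receptors, growth factors and other partners, 20 had negative differences (median -0.11), beside 49.4% of all genes, 0 were called and 5 were below 0.05 unadjusted. Met, a receptor that decorin engages, stood at 0.48 ± 0.13, Itgb1 at -0.23 ± 0.07, Vegfa at -0.20 ± 0.08 and Kdr at -0.35 ± 0.13. Of 10 related small leucine-rich genes outside the list, 5 could be tested and 3 were positive (median 0.05), with 0 called and 0 below 0.05 unadjusted. Ecm2, next to Aspn on chromosome 13, stood at -0.59 ± 0.36 (SE, limma adjusted p = 0.487).

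At 24 h, decorin differed most between KO-labelled and Het slices, in males, and no member passed the test in any comparison. Values at 24 h are CPM after TMM scaling, and tests are those of edgeR. Dcn stood at 42.7, 41.2 and 46.1 in Het males 1 to 3 and at 143.2, 68.5, 74.2 and 64.6 in KO-labelled males 1 to 4. The male groups did not overlap, and KO male 1 stood far above the other 3. Non-overlap toward higher values held in males for 1 of the 6 tested members and for 3.40% of 16013 genes (3.77% toward lower values, 7.18% in either direction). The log2 difference was 1.01 ± 0.27 (SE, edgeR adjusted p = 0.718, unadjusted p = 0.00163), and 0.67 ± 0.21 without KO male 1. Beside it, 15 of 19 meningeal fibroblast markers were positive in males (median 0.18) and 9 of 19 in females (median -0.02). In males 12 of 13 astrocyte markers (median -0.18), 11 of 12 microglial markers (-0.21) and 9 of 10 markers of the oligodendrocyte lineage (-0.23) were negative. EdgeR called 0 of these 4 lists in males, with 1, 3, 2 and 3 below an unadjusted p of 0.05. Also in males, 10 of 12 endothelial markers were negative (median -0.11). Positive were 8 of 11 choroid plexus (0.44) and 11 of 14 neuronal markers (0.05). So were 6 of 10 pericyte (0.09) and 3 of 6 chondrocyte and bone markers (0.03). EdgeR called 0 of these too, with 1, 1, 0, 2 and 0 below 0.05 unadjusted in the order named, beside 1100 of all 16013 genes. The part of these cell types in the Dcn difference was not tested.

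In females Dcn stood at 66.3, 59.3 and 57.7 in Het and at 69.6, 64.1, 29.4 and 56.2 in KO-labelled libraries. These groups overlapped, with only KO female 3 well below the rest. In females 0 of the 6 tested members were free of overlap, beside 2.40% of genes toward lower values, 2.30% toward higher and 4.70% in either direction. The log2 difference was -0.17 ± 0.26 (SE, edgeR adjusted p = 1.00), 0.05 without KO female 3 and -0.25 without KO female 2. The male minus female difference of the KO minus Het contrast was 1.18 ± 0.37 (SE, edgeR adjusted p = 0.977), and 1.18 with KO female 2 counted as a male library. Het males lay below all 3 Het females in Dcn, a pattern noted after its values were seen.

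Lum varied with Dcn. It stood at 10.04, 11.7 and 10.7 CPM in Het females, 13.4, 10.3, 3.76 and 7.61 in KO-labelled females, 9.26, 8.67 and 10.5 in Het males, and 16.2, 9.61, 11.03 and 14.1 in KO-labelled males. KO female 3 was lowest and KO male 1 highest of the 14, as for Dcn. The log2 difference was -0.32 ± 0.29 (SE) in females and 0.43 ± 0.29 in males (edgeR adjusted p = 1.00 and 0.789), and the female value was -0.05 without KO female 3.

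Prelp stood at 13.0, 13.8 and 8.93 CPM in Het females and 10.3, 11.02, 26.5 and 13.8 in KO-labelled females. In Het males it was 8.57, 9.18 and 12.4, and in KO-labelled males 10.5, 8.31, 8.07 and 12.2. KO female 3, the lowest library for Dcn and Lum, was 1.92 times the next highest for Prelp. It also had the highest choroid plexus marker sum (2800 CPM) and the lowest meningeal marker sum (692 CPM). High choroid plexus sums did not go with high Prelp elsewhere. KO female 1 (1537 CPM) and KO male 3 (500 CPM) had Prelp at 10.3 and 8.07 CPM, the lowest of their groups. The part of these cells in the Prelp values was not tested. The female log2 difference of 0.39 ± 0.28 (SE, edgeR adjusted p = 1.00) became -0.02 without KO female 3, and the male one was -0.03 ± 0.29 (adjusted p = 0.991). Beside these stands the 4 h difference of -1.06 against WT; the 2 times have different controls and were not tested against each other.

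**Figure D3:**
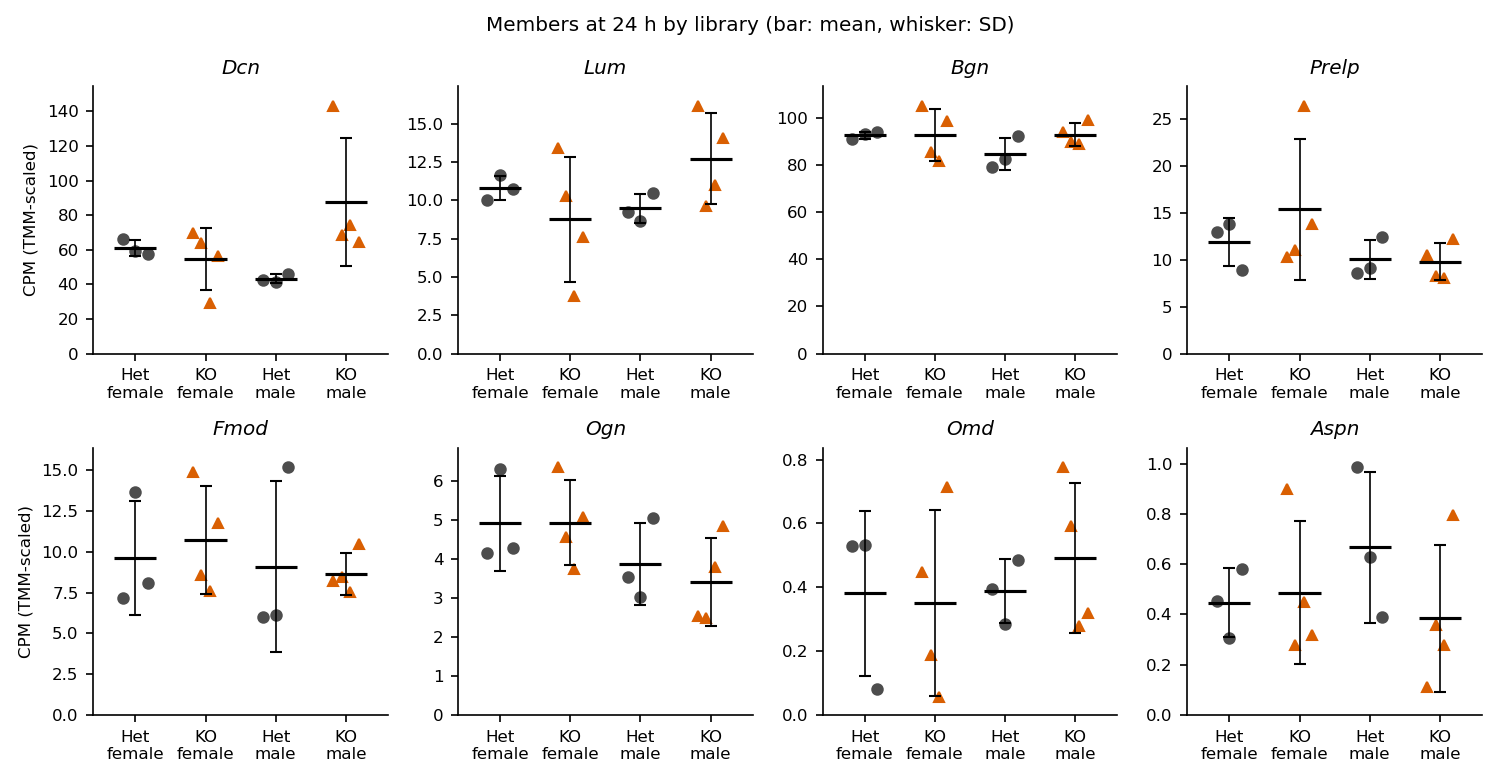
CPM of the 8 members at 24 h in Het (circles) and KO-labelled (triangles) libraries of each sex, with the mean (bar) and SD (whisker). KO male 1 stands apart for Dcn at 143.2 and KO female 3 for Prelp at 26.5, and Bgn spans only 79.1 to 105.0.

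The other members overlapped between genotypes in both sexes. Bgn, the X-linked member, was the steadiest: 79.1 to 105.0 CPM, a coefficient of variation of 7.93% over the 14 libraries, beside 28.3% to 41.8% for the other 5 tested. Its log2 difference was 0.00 ± 0.08 (SE) in females and 0.14 ± 0.08 in males, with edgeR adjusted p of 1.00 and 0.776. Ogn ranged from 2.49 to 6.36 CPM, with 0.00 ± 0.25 in females and -0.13 ± 0.28 in males. Fmod ranged from 6.01 to 15.2 CPM, with 0.15 ± 0.31 and -0.04 ± 0.32. Omd (0.0562 to 0.776 CPM) and Aspn (0.111 to 0.985 CPM) had overlapping ranges in all 4 groups.

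Across all 16013 genes, edgeR called 0 genes (0%) and 0 of 6 members in the female, male, averaged and difference contrasts. At an unadjusted p under 0.05 these contrasts held 657, 1100, 1060 and 618 genes, and 0, 1, 1 and 1 members, each time Dcn. DESeq2 called 1, 1, 5 and 1 genes and 0 members. The median over the 6 tested members was 0.00 in females and 0.05 in males, beside 0.00 for all genes in both. With no filter on low counts edgeR called Dcn in males, on average and for the difference between sexes, among 165 to 263 genes per contrast. In that fit the prior degrees of freedom became infinite (6.47 with the filter), so each gene took the trend's spread, and the SE of Dcn in males shrank from 0.27 to 0.09. With the adjusted form of the same fit, chosen after seeing the data, the prior was 19.1 and the adjusted p of Dcn in males 0.228.

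Between sexes, edgeR called 3 of 16013 genes (0.0187%), all lower in males and Xist among them, and 0 members. Ogn (-0.43 ± 0.19, SE) and Prelp (-0.46 ± 0.20) had unadjusted p-values of 0.0355 and 0.0363 and were adjusted to 0.998. An unadjusted edgeR p under 0.05 was thus held by 2 of the 6 tested members, beside 708 of all 16013 genes. Prelp was at -0.25 without KO female 3 and at -0.50 with KO female 2 counted as male. For X-linked Bgn the difference was -0.06 ± 0.06.

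**Figure D4:**
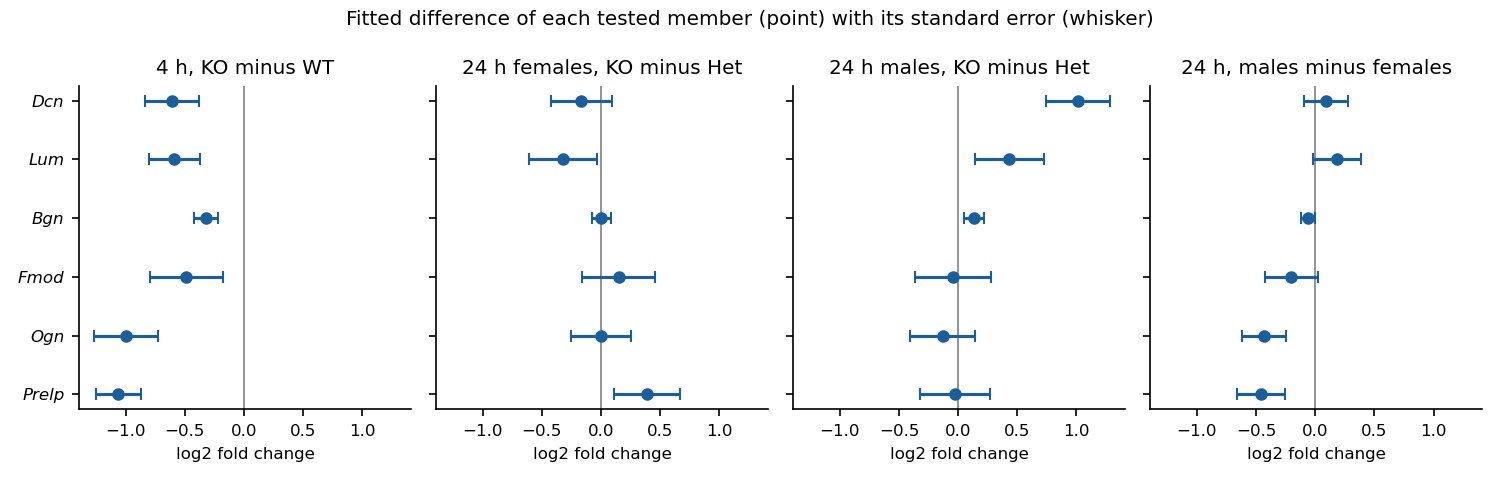
Fitted log2 fold change (point) and standard error (whisker) of the 6 tested members in 4 comparisons. All 6 are negative at 4 h, whereas at 24 h they fall on both sides of 0 and Dcn in males is the highest at 1.01.

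Partner genes at 24 h, averaged over sexes, were described in the same way. Of 28 partners 18 had positive differences (median 0.08), and edgeR called 0, with 4 below an unadjusted p of 0.05: Hspg2 (perlecan, the heparan sulfate proteoglycan that PRELP binds) at 0.35 ± 0.08, Lrp1 at 0.25 ± 0.06, Met at 0.29 ± 0.10 and Vegfa at 0.20 ± 0.09. Of 22 collagens and their enzymes 17 were positive (median 0.08), with 0 called and 2 below 0.05 unadjusted. Col14a1, a fibril-associated collagen that binds decorin, stood at 0.56 ± 0.17, Col2a1 at 0.37 ± 0.17, Col5a3 at 0.24 ± 0.12 and Lox at 0.52 ± 0.28. Of the 28 glycan synthesis genes 13 were positive (median -0.02), with 0 called and 1 below 0.05 unadjusted, Chst11 at 0.13 ± 0.05. In males alone Lox stood at 1.20 ± 0.41 and Col14a1 at 0.74 ± 0.26, and KO male 1 had by far the highest Lox. Averaged again, meningeal fibroblast markers were positive for 15 of 19 (median 0.07), with 0 called and 0 below 0.05 unadjusted. Choroid plexus markers were positive for 10 of 11 (median 1.02), with 0 called and 8 below 0.05 unadjusted, beside 1060 of all 16013 genes. In females they were positive for 11 of 11 (median 1.49), with 0 called and 8 below 0.05 unadjusted, beside 657 genes. Their high sums were those of KO female 1, KO female 3 and KO male 3. Ecm2 stood at 0.71 ± 0.24 (SE, edgeR adjusted p = 0.738). In 4 KO-labelled females it had 3.59, 4.30, 4.66 and 2.14 CPM and in Het females 1.59, 2.74 and 1.49. In KO-labelled males it had 1.66, 3.204, 1.48 and 1.67 CPM and in Het males 1.379, 1.37 and 1.46, so that only KO male 2 was far above the Het males.

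Of the pairs of members, 3 varied together over the 14 libraries at 24 h. All 15 pairs of the 6 tested members were examined by Pearson's r of log2 CPM with permutation p-values adjusted over the 15. Dcn and Lum, neighbours on chromosome 10, gave r = 0.80 (rho = 0.71, raw permutation p = 0.00267, adjusted p = 0.0149). Without KO female 3 and KO male 1, the libraries farthest on the Dcn axis, r was 0.49 (adjusted permutation p = 0.242). Leaving out the ends narrows the range, so this cannot show whether the relation rests on them. The adjusted permutation p of rho was 0.0425, and residuals from group means gave r = 0.82 (adjusted permutation p = 0.0069). Ogn and Fmod gave r = 0.74 (rho = 0.74, raw permutation p = 0.00297, adjusted 0.0149) and, without KO males 1 and 2, r = 0.92 (adjusted permutation p = 0.00075). Bgn and Fmod gave r = 0.75 (rho = 0.68, raw permutation p = 0.00226, adjusted 0.0149) and, without KO female 1 and Het male 1, 0.59 (adjusted permutation p = 0.242). The adjusted permutation p of rho was 0.0425 for Ogn with Fmod and 0.04375 for Bgn with Fmod. Residuals from group means gave r = 0.78 and 0.80 for them (adjusted permutation p = 0.0069 each). Prelp and Fmod, on chromosome 1, gave r = 0.23 (rho = 0.39, raw permutation p = 0.456, adjusted 0.622).

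The summed CPM of the meningeal fibroblast markers went with several members over the same libraries, in a family of 6 relations added after seeing the data. The r was 0.81 for Bgn (rho = 0.78), 0.74 for Lum (rho = 0.46) and 0.69 for Fmod (rho = 0.80). In that order the adjusted permutation p was 0.0015, 0.0178 and 0.0142 for r, and 0.00522, 0.118 and 0.00522 for rho. Without KO females 1 and 3, the libraries farthest from the median sum, r became 0.80, 0.23 and 0.80 (adjusted permutation p = 0.00672, 0.487 and 0.00672). Dcn gave r = 0.56 (rho = 0.46, adjusted permutation p = 0.0648 for r and 0.118 for rho), and 0.25 (adjusted 0.487) without those libraries. Ogn gave r = 0.52 (rho = 0.66, adjusted permutation p = 0.0648 for r and 0.0253 for rho), and 0.59 (adjusted 0.0641) without them. Prelp gave r = -0.32 (rho = 0.25, adjusted permutation p = 0.235 for r and 0.392 for rho) over all 14. It gave 0.76 (adjusted 0.009) without KO females 1 and 3.

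**Figure D5:**
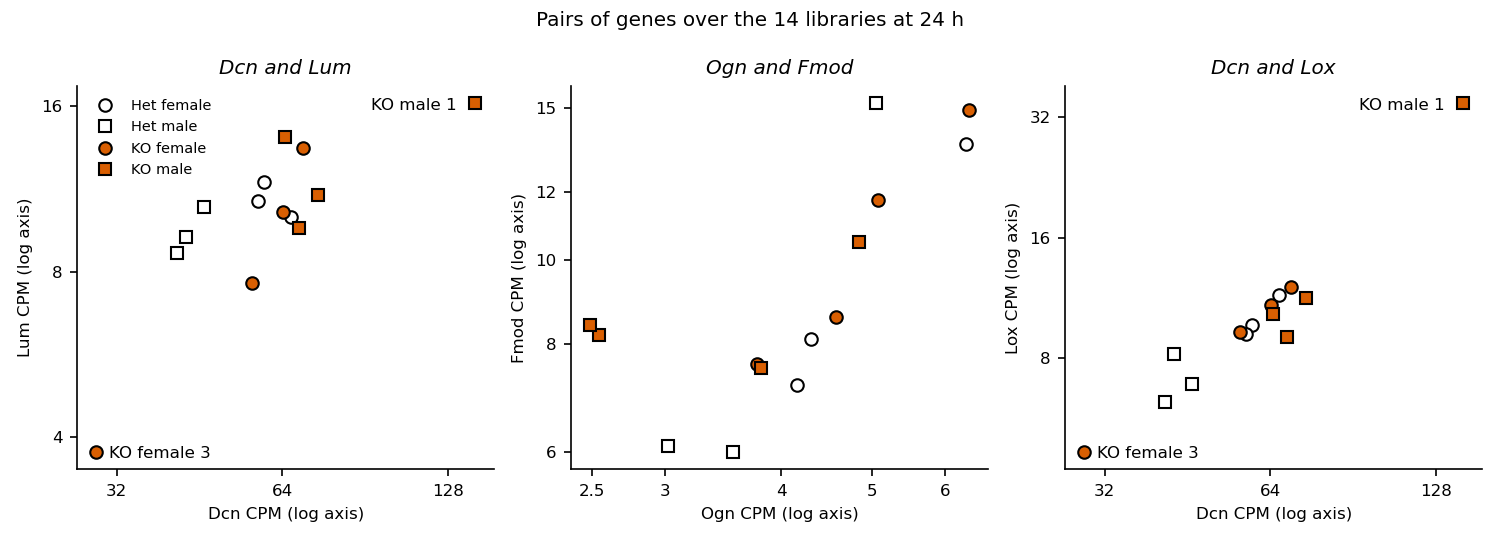
CPM at 24 h of Dcn against Lum, Ogn against Fmod and Dcn against Lox, on log axes (circles: female, squares: male, filled: KO-labelled, 1 point per library, 14 in all). KO female 3 and KO male 1 sit at the ends of both Dcn plots, and for Ogn and Fmod 2 KO-labelled males lie off the line of the rest.

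The genes most like each member were sought among 15044 genes by r of log2 CPM over the 14 libraries, and were chosen as the highest, so no p is given. For Dcn they were Lox (r = 0.96), the enzyme that cross-links collagen, Prg4 (0.92), a lubricating proteoglycan, and Nupr1 (0.89). Lox had 4.66 CPM in KO female 3 and 34.7 CPM in KO male 1, the same low and high libraries as Dcn, and r was 0.89 without them, whereas Prg4 gave 0.71 and Nupr1 0.59. In the 6 libraries at 4 h, Lox and Prg4 also gave 0.95 and 0.94 with Dcn, whereas Nupr1 gave -0.06. For Lum they were Igfbp3 (0.91), Col3a1 (0.88) and Clec2d (0.88), with 0.81, 0.76 and 0.36 at 4 h. Without KO female 3 and KO male 1, Igfbp3 gave 0.58, Col3a1 0.50 and Clec2d 0.72.

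For Bgn the nearest were Gmeb2 (0.92), Cenpv (0.87) and the growth factor gene Igf2 (0.87), of which Igf2 gave 0.94 at 4 h, Cenpv 0.67 and Gmeb2 -0.01. Without KO female 1 and Het male 1 they gave 0.81, 0.78 and 0.86 at 24 h, in that order. Fmod was nearest to Crabp2 (0.84), a retinoic acid carrier, Igf2 (0.84) and Lsr (0.82), with 0.83, 0.64 and -0.16 at 4 h, and 0.73, 0.81 and 0.67 at 24 h without the 2 libraries farthest from the Fmod median. The nearest genes of Prelp were Dnah9 (0.90), an axonemal dynein of motile cilia, 1700003E16Rik (0.88) and Crip3 (0.87), and all 3 were highest in KO female 3. Without that library and KO male 3 they gave 0.68, 0.72 and 0.61. Dnah9 gave 0.83, 1700003E16Rik -0.16 and Crip3 0.81 at 4 h. Ogn, at 2.49 to 6.36 CPM, was nearest to Hfe2 (0.94), Tdrd6 (0.87) and Ggact (0.83, all over 14 libraries), with -0.65, -0.69 and 0.65 at 4 h and 0.88, 0.77 and 0.73 at 24 h without KO males 1 and 2. Igf2, Crabp2 and Col3a1 are also among the summed meningeal markers. Their nearness to Bgn, Fmod and Lum is therefore not separate from the relations with that sum.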

How the data were processed

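RNA-seq libraries (SMART-Seq chemistry, per the labels' protocols) were analysed from 2 deposited tables. Per the submitters' processing notes, the tools were TopHat2, HTSeq and DESeq2 1.38.3 and the build GRCm38; their roles are not given there. Raw read counts make up the deposited table for 24 h. For 4 h the deposited values are a signal, namely counts that the authors divided by 1 size factor per library: multiplied back, 100% came within 0.05 of a whole read. As these are not raw counts, the main 4 h test was limma 3.58.1 with a trend on log2(value + 1) for genes with a mean of at least 10. The 24 h test was edgeR 4.0.16 (R 4.3.3) with TMM scaling, its expression filter, the quasi-likelihood F test and 1 mean per genotype and sex over 14 libraries. Tests were two-sided, with Benjamini-Hochberg adjustment over all genes and a threshold of 0.05. DESeq2 1.42.0, edgeR on recovered reads and other settings were alternatives.

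Replicate numbers come from the titles. At 4 h same-numbered libraries deviated together (correlations of deviations 0.140, 0.175 and 0.264, other pairs -0.218 to 0.0638). No label gives a pairing, and the main test did not use the number. With 3 libraries per group the deviations are not independent of each other. WT 1 and KO 1, the pair at 0.264, were also the libraries with Xist reads, so a pairing was not established. No 2 libraries of a group agreed within sampling noise (chi-square per degree of freedom 3.32 to 13.6). Permutation p-values used 100000 resamples. Identifiers matched symbols for 19673 of 19722 and 51633 of 51912 genes. Statements on what low read numbers allow refer to counting alone, and molecular identifiers are not mentioned in the sources used here, so reads may include PCR copies.

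The members and gene lists were chosen with earlier results of these data known. All 8 members were described in each comparison. Named besides were the up to 4 genes with the smallest p per list, those past the threshold, the meningeal markers that move with a result, and the 3 genes nearest each member by r among those with a mean CPM of at least 1.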

Additional observations from a re-analysis of the deposited data

Results flagged for a closer look

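Dcn in KO male 1 at 24 h, 143.2 CPM, stood apart from the other 3 KO-labelled males (64.6 to 74.2 CPM). The gap to the next library was 0.879 of the group's range, above Dixon's critical value for 4 libraries. The 8 members in the 2 KO-labelled groups made 16 such checks, of which 1 was past it, and chance flags about 1 in 20. The same library had the highest Lum (16.2 CPM), Lox (34.7 CPM) and Prg4 (36.3 CPM) of the 14, and its meningeal marker sum of 1324 CPM lay within the 1225 to 1642 CPM of the KO-labelled males.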

How the results depend on the processing

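At 4 h, 7 genes and 0 members were called. DESeq2 on recovered reads called 161 genes, a robust spread 28, the fit with the replicate block 38 and the fit without both libraries with Xist reads 1. Prelp was the 1 member called with the robust spread and with the replicate block. Leaving out 1 library gave 1 to 211 genes and 0 to 4 members; the 4 members and the 211 genes came without KO-labelled 2. At 24 h the calls for females, males, the average, the difference and the sexes (0, 0, 0, 0 and 3 genes) became 1, 1, 5, 1 and 5 with DESeq2 and 180, 220, 263, 165 and 215 with no filter on low counts. That fit called 1 member in males, on average and for the difference (Dcn) and 1 between sexes (Prelp), its prior degrees of freedom being infinite; the adjusted quasi-likelihood form, added after seeing the data, gave 1 gene in males, 5 on average and 9 between sexes, and 0 members. Fitting the 2 male groups alone gave 1 gene, and KO female 2 counted as male gave 9 between sexes. Without 1 library the average gave 0 to 2 genes and the sexes 2 to 9, the 9 without KO female 2. At 24 h the replicate numbers only number the libraries: same-numbered ones had correlations of deviations of -0.149 to 0.201 (median -0.0105). The replicate block gave 1, 0, 1, 0 and 3 genes and 0 members there. Pairs of correlated members were 3, but 5 on residuals from group means and 1 without the 2 libraries farthest on the x axis. The cause of these changes was not tested except where named.

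Of the members' log2 differences under alternatives, 679 kept direction and side of the threshold, 10 passed it newly and 49 changed sign. Most of these were values within their own SE of 0, the exceptions being Fmod at 4 h without KO-labelled 3 and, in females, Prelp without KO female 3. Bgn in females became -0.011 with library totals, -0.0035 with no filter, -0.0036 with the adjusted form, -0.034 with the replicate block and -0.00012 with 2 groups. Ogn in females became 0.0025 with RLE scaling, 0.0032 with DESeq2 and 0.030 with KO female 2 as male. With KO female 2 as male, Prelp in males became 0.0080 and Lum on average -0.016; with the block, Fmod on average became -0.019. Leaving out 1 library, Fmod at 4 h ranged from -0.77 to 0.0051. In females the ranges were -0.023 to 0.54 for Prelp, -0.056 to 0.49 for Fmod, -0.064 to 0.060 for Bgn, -0.31 to 0.053 for Dcn and -0.15 to 0.22 for Ogn. In males they were -0.16 to 0.14 for Prelp, -0.29 to 0.52 for Fmod and -0.36 to 0.098 for Ogn. On average they were -0.023 to 0.27 for Prelp, -0.071 to 0.33 for Fmod, -0.091 to 0.19 for Lum and -0.18 to 0.049 for Ogn. For the difference they were -0.53 to 0.37 for Fmod and -0.36 to 0.098 for Ogn, and between sexes -0.074 to 0.16 for Dcn. Depth limits Omd and Aspn, with at most 12 reads per library.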
